A study of Mus musculus with 5 samples.

Results

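Ago-bound RNA of suckling mouse liver at postnatal day 7 (P7) was set against that of mature liver (adult, 6 to 8 weeks old), gene by gene, region by region and miRNA by miRNA. The members were the libraries of the series made with antibodies against both Ago2 and Ago1, which were 2 of its 5 libraries. Both came from liver of C57BL/6 mice, as the labels name the strain, and the methods give it as C57BL/6J. The embryonic libraries were made with Ago2 antibodies alone and were not used here. Each stage had 1 list of miRNA-target interactions. The methods name 2 biological replicates for Ago2, the labels give 1 sample per stage, and whether replicates were pooled is not stated. The supplement of the study lists 1 library each for P7 and adult liver, and a repeat library for e18.5 only. No test between the stages was therefore possible, and every difference below is a difference between 2 libraries.

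Argonaute (Ago) proteins hold a mature miRNA and use its seed, bases 2 to 8 from the 5′ end, to find complementary sites in mRNAs, which are then translated less or degraded. In Ago HITS-CLIP, ultraviolet light crosslinks Ago to the RNA it touches in the tissue (here 3 exposures at 254 nm and 0.2 J/cm2), Ago is precipitated, and the RNA fragments are sequenced. Between suckling and maturity the mouse liver loses its remaining blood-forming cells, its hepatocytes stop dividing, fetal and imprinted growth genes are silenced, and enzymes of bile acid, drug and lipid metabolism reach mature levels. The amount of a bound fragment depends on how much mRNA there is as well as on how often Ago sits on it. Those contributions cannot be told apart here, nor can fewer cells of a type be told from less RNA per cell.

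The miRNAs on which the comparison turns are shown first, as mature sequences from RefSeq (GRCm38.p6), written 5′ to 3′ with the seed in capitals. let-7c-5p, miR-194-5p and miR-16-5p were abundant at both stages or in adult liver, miR-30a-5p, miR-142a-3p, miR-136-5p and miR-127-3p took larger shares at P7, and the miR-29 members took larger shares in adult liver. The 3 miR-29 members have the same seed.
let-7c-5p: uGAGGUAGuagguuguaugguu
miR-194-5p: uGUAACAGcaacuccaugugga
miR-16-5p: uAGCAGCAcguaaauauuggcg
miR-30a-5p: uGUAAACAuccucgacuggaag
miR-142a-3p: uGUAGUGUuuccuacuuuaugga
miR-136-5p: aCUCCAUUuguuuugaugaugg
miR-127-3p: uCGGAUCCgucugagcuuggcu
miR-29a-3p: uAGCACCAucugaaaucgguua
miR-29b-3p: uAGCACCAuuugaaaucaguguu
miR-29c-3p: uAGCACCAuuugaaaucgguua

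Single 3′UTR sites are shown next, because they are the places in the mRNA where the heights were read. The first 5 were taken from the sites of abundant miRNAs with the widest ratios, and the 4 miR-29a-3p sites from the 10 with the highest mean height. These 4 were picked after their heights were seen, and all differ by more than 2-fold. Each is the deposited target fragment, found at its listed position in GRCm38, written 5′ to 3′ on the strand of the gene. Capitals mark the bases that pair with the seed, all 7 or, in the Pkn2 site, 6 of them.
Ccne2 with miR-30a-5p, chr4:11203337-11203355, plus strand: aaaagagaactTGTTTACa
Slc35b2 with miR-30a-5p, chr17:45567491-45567512, plus strand: gctgggaagagaatTGTTTACa
Pkn2 with let-7a-5p, chr3:142792613-142792634, minus strand: ataacactaaagctgTACCTCa
Lamp2 with miR-194-5p, chrX:38421686-38421707, minus strand: aatccacatgtgatCTGTTACa
Rabac1 with miR-194-5p, chr7:24969766-24969787, minus strand: ctttggaaataaagCTGTTACa
Slco1b2 with miR-29a-3p, chr6:141685957-141685974, plus strand: aaaatttgcaTGGTGCTa
Hsd3b7 with miR-29a-3p, chr7:127803012-127803033, plus strand: gctgctccgcccacTGGTGCTg
Atg9a with miR-29a-3p, chr1:75181679-75181700, minus strand: cttggctcagagtgTGGTGCTa
Sh3tc1 with miR-29a-3p, chr5:35699738-35699759, minus strand: tgtgaaggtctaccTGGTGCTg

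The P7 list held 761121 interactions in 124781 clusters, and the adult list 459112 in 81194. A cluster is a stretch of overlapping reads, and its height is the highest number of reads over it. Heights summed to 16499162 at P7 and 24885228 in adult liver, and no cluster under 5 reads was listed. Each height was divided by the sum of its list and multiplied by 1000000, which gives reads per 1000000 (RPM), so that the listing minimum came to 0.303 RPM at P7 and 0.201 in adult liver. Clusters at miRNA genes held 70.7% of the summed reads at P7 and 80.0% in adult liver, and clusters of mRNAs outside them 19.02% and 11.69%. This smaller mRNA share moves every mRNA downwards in adult liver, so each change is also read against the median of all genes in that region. Hepatocyte markers were listed at both stages for 10 of 10 genes in the CDS, with summed scaled heights of 2325 at P7 and 2840 in adult liver. In their 3′UTRs, also listed for all 10 at both stages, the sums were 527 and 204.

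Red blood cell and neutrophil mRNAs had higher Ago clusters at P7 than in adult liver, where globin clusters were still high. The α-globin genes Hba-a1 and Hba-a2, which share reads and cannot be separated, had the highest cluster of the erythroid list with 259178 reads at P7 and 17690 in adult liver, 15709 and 711 RPM. Of 20 erythroid markers, 18 were listed in the CDS at P7 and 9 in adult liver, with summed scaled heights of 32372 and 1506. Those sums count the cluster of Hba-a1 and Hba-a2 for each of them, as they do that of Hbb-bs and Hbb-bt. Without the α-globin pair they were 954 and 84.7 (11.3-fold), and without both pairs 168 and 6.83 (24.6-fold). Of the 14 erythroid genes kept in the comparison below, 13 were at least 2-fold higher at P7 or listed at P7 only, beside 37.3% of all CDS genes. The membrane protein genes Slc4a1, Ank1, Sptb and Rhag and the erythroid regulators Klf1 and Gata1 had no CDS cluster in the adult list. All 12 neutrophil and myeloid progenitor markers were listed in the CDS at P7 and 3 in adult liver, with summed scaled heights of 199 and 2.61. S100a9, which encodes a calcium-binding protein of neutrophils, had 1267 reads at P7 and was not listed in the adult CDS. Among Kupffer cell markers in the CDS, 11 of 12 were listed at P7 and all 12 in adult liver, and the sums were 52.9 and 55.6. Of the 8 kept there, 3 were higher in adult liver, 1 at P7 and 4 under 2-fold, beside 17.3% and 34.5% of all CDS genes higher in adult liver and at P7. Clec4f had the widest ratio towards adult liver, with 47 and 323 reads, and Lyz2, a lysozyme, was the gene higher at P7, with 213 and 132. The same list summed to 24.7 and 5.83 in the 3′UTR, where Csf1r, a macrophage growth factor receptor, had 193 and 39 reads and Lyz2 122 and none listed. In the 5′UTR it summed to 6.67 and 15.7, and Cd5l had none listed at P7 and 153 in adult liver. Endothelial markers summed to 101 and 88.8 in the CDS and 25.5 and 13.7 in the 3′UTR, but to 15.6 and 33.8 in the 5′UTR, where Eng, a co-receptor of the TGF-β family, had 25 and 422 reads. Stellate cell and fibroblast markers summed to 73.9 and 33.0 in the CDS, 44.9 and 24.6 in the 3′UTR and 12.7 and 6.35 in the 5′UTR. Lrat, which stores vitamin A as ester in stellate cells, went the other way within the stellate list, with 34 reads in the 3′UTR at P7 and 237 in adult liver. Of lymphocyte markers 1 of 12 reached the mean of 2 RPM used for genes below, and of 8 cholangiocyte and 10 pancreatic acinar markers none did in 3′UTR or CDS. These shifts in cell type markers moved with the P7-high genes described below, and their part in them was not tested.

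Ago clusters lay less often in 3′UTRs and more often in coding sequence (CDS) in adult liver. The 3′UTR held 23.7% of clusters at P7 and 19.6% in adult liver, a difference of −4.12 percentage points (95% interval −4.48 to −3.76). The CDS held 42.0% and 48.0%, a difference of 6.00 points (5.56 to 6.44). These intervals come from the numbers of clusters and, like all others given here, cover counting error only, since reads without molecular identifiers are not independent molecules. Both 5′UTRs (3.34% and 3.60%) and introns (21.8% and 22.7%) differed by under 1 point, and intergenic clusters made up 18.7% and 15.8%. A cluster can count in several of these classes. Weighted by reads outside miRNA genes, the 3′UTR share was 29.9% at P7 and 13.6% in adult liver, while the CDS share was 48.6% and 48.2%, so the CDS gain was seen in clusters and not in reads. Globin clusters bore on this: without them the read shares were 21.5% and 13.0% for 3′UTRs and 41.8% and 47.7% for the CDS.

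Fewer mRNAs were listed with Ago sites in adult liver. Genes with 3′UTR sites numbered 8111 at P7 and 5752 in adult liver, 4893 of them in both, and genes with CDS sites 10976 and 9244, with 8236 in both. For each gene the highest cluster in a region was compared where its mean over both stages was at least 2 RPM, which kept 2006 genes for the 3′UTR and 3766 for the CDS. In the 3′UTR 971 genes (48.4%) were at least 2-fold higher at P7 and 184 (9.17%) at least 2-fold higher in adult liver. A further 122 (6.08%) were listed at P7 only and 9 (0.449%) in adult liver only, which makes 1093 (54.5%) towards P7 and 193 (9.62%) towards adult liver. In the CDS 1301 (34.5%) were higher at P7 and 651 (17.3%) in adult liver, with 102 (2.71%) and 27 (0.717%) in a single list, or 1403 (37.3%) and 678 (18.0%) in all. The median log2 ratio of adult over P7 was −1.08 in the 3′UTR and −0.45 in the CDS. Counted against those medians, 473 (23.6%) and 509 (25.4%) 3′UTR genes were at least 2-fold lower and higher in adult liver, and 887 (23.6%) and 984 (26.1%) CDS genes. The balance rests on the scaling. When the 100 clusters with most reads were left out of each sum, genes higher in or only in P7 against adult numbered 730 against 1301 in the CDS, compared with 1403 against 678 above, and 683 against 428 in the 3′UTR, compared with 1093 against 193. The median log2 ratios were then −0.25 in the 3′UTR and 0.38 in the CDS. For the 5′UTR 451 genes were kept, 116 (25.7%) higher at P7 and 101 (22.4%) in adult liver, with 36 (7.98%) and 28 (6.21%) in a single list and a median of −0.24. The median number of distinct sites per kept gene was 25 in the 3′UTR at P7 and 12 in adult liver, and 29 and 20 in the CDS. Sites are listed only for the miRNAs that a list names, 743 at P7 and 585 in adult liver. The part of this difference in the numbers of listed genes and sites was not tested.

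**Figure D1:**
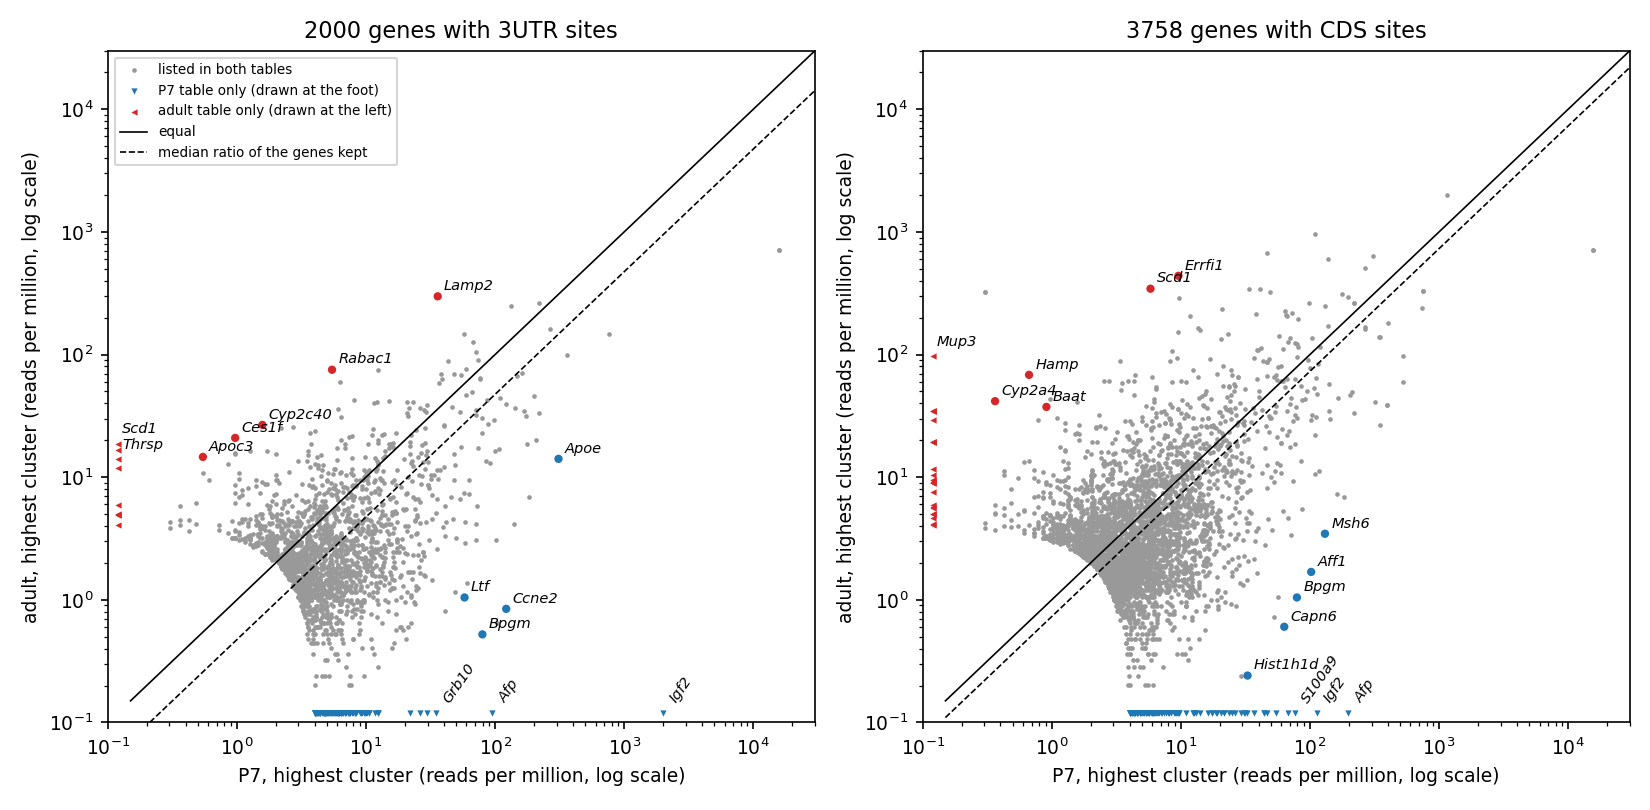
Height of the highest Ago cluster of each gene in the 3′UTR (left) and CDS (right), in RPM, at P7 (horizontal) and in adult liver (vertical), both axes logarithmic, without the 6 and 8 genes whose sites lie in miRNA genes. The solid line marks equal values and the dashed line the median ratio; most 3′UTR points lie below the solid line, triangles at the edges are genes listed at 1 stage, and named points are coloured blue where higher at P7 and red where higher in adult liver.

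The spread between clusters of a single gene gives a scale for these differences. For clusters at overlapping positions in both lists, the log2 ratio of adult over P7 had an SD of 1.56 over 5332 pairs in the 3′UTR and 1.58 over 14044 pairs in the CDS. Within a gene with at least 3 such pairs the median SD was 1.28 (531 genes) in the 3′UTR and 1.32 (1590 genes) in the CDS. A 2-fold difference, 1 on the log2 scale, is therefore smaller than the usual spread between clusters of the same mRNA, and clusters of a gene are not replicates of a stage. Exact sites were mostly listed at 1 stage: 16086 3′UTR positions were in both lists, 13.0% of those at P7 and 28.3% of those in adult liver, and 44780 CDS positions, 20.1% and 28.9%.

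Of a list of 22 growth genes, many of them imprinted, 18 had a 3′UTR site at P7 and 6 in adult liver, and 15 and 5 a CDS site. The list was drawn up as genes silenced after birth. Its members were thus chosen for the direction counted here, and the counts only describe them. Their summed 3′UTR heights were 2198 and 11.1 RPM, and without Igf2, which held most of the P7 sum, 185 and 11.1. Igf2, the imprinted fetal growth factor, had 278 distinct 3′UTR sites and a highest 3′UTR cluster of 33213 reads at P7, 2013 RPM, and no 3′UTR or CDS site in the adult list. Afp, the fetal counterpart of albumin, reached 1560 reads in the 3′UTR and 3258 in the CDS at P7 and was likewise not listed in either region in adult liver. Grb10, an imprinted inhibitor of insulin receptor signalling, had 579 3′UTR reads at P7 and none listed in adult liver, while its CDS had 201 and 26. Peg3, another imprinted gene, went from 306 reads to 15 in the 3′UTR (log2 −4.94), and from 306 to none listed in the CDS, equal P7 heights that arise where a cluster counts in each. Igf2r, the imprinted receptor that clears Igf2, had 555 and 105 CDS reads (log2 −3.00). Of the list 9 were kept in the 3′UTR, of which 3 were higher at P7, 5 listed at P7 only and 1 under 2-fold, beside 54.5% of all 3′UTR genes towards P7. Of the 7 kept in the CDS, 3 were higher at P7, 3 listed at P7 only and 1 under 2-fold, beside 37.3%. None was higher in adult liver in either region, and the others, as in every list below, had no listed site or lay under the filter. Dcn, a matrix proteoglycan in the same list, was the gene under 2-fold in both, with 118 and 117 reads in the 3′UTR and 151 and 179 in the CDS.

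Cell cycle mRNAs were listed more often at P7 than in adult liver. All 36 genes of the list had a CDS site at P7 and 19 in adult liver. Of the 17 kept, 11 were higher at P7, 2 were listed at P7 only, 4 were under 2-fold and none was higher in adult liver, beside 37.3% of all CDS genes towards P7. Their median log2 ratio was −1.62, or −1.17 against the median of all CDS genes. Mki67, the proliferation marker, had 480 CDS reads at P7 and was not listed in adult liver. Cdc20, an activator of the anaphase-promoting complex, had 104 and 9 (log2 −4.12), and Top2a, the topoisomerase of dividing cells, 322 and 30 (log2 −4.02). Only 6 genes were kept in the 3′UTR, and Cdkn1a, an inhibitor of the cycle, was the one higher in adult liver, with 16 and 91 reads. Of the others 3 were higher at P7, 1 was listed at P7 only and 1 was under 2-fold, beside 54.5% of all 3′UTR genes towards P7. The median of −1.07, over kept genes listed at both stages, lay 0.01 from that of all genes, so no shift beyond all genes was seen in these heights. A 3′UTR site was listed for 29 of the 36 genes at P7 and 11 in adult liver, beside 8111 and 5752 of all genes. Dividing blood precursors as well as hepatocytes express cell cycle genes, and the erythroid and myeloid markers moved the same way. Their part was not tested.

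The widest ratios towards P7 are given for genes with a mean of at least 5 RPM listed at both stages. In the 3′UTR C5ar2, a receptor for complement C5a, had 1696 reads at P7 and 16 in adult liver (log2 −7.32, counting interval −8.13 to −6.62). Bpgm, which makes 2,3-bisphosphoglycerate in red cells, had 1316 and 13 (log2 −7.25, −8.17 to −6.48), and its CDS moved alike with 1307 and 26. Ccne2, a cyclin of the entry into DNA synthesis, had 2012 and 21 (log2 −7.17, −7.87 to −6.56), the heights of the cluster at the miR-30a-5p site printed above. Next came Ltf, the neutrophil protein lactoferrin (957 and 26), and then Ngfrap1, Hbb-bt, Tpd52, Rassf3, Asb1 and Cd24a, with log2 ratios from −5.68 to −5.32. Hbb-bt is a β-globin whose reads can be shared with its near-identical copies. In the CDS the linker histones Hist1h1d (542 and 6) and Hist1h1b (482 and 6) led, followed by the calpain family gene Capn6 (1043 and 15), Bpgm, Prc1, a cytokinesis factor (866 and 18), Aff1, of transcription elongation (1686 and 42), Lcn2, a neutrophil lipocalin (932 and 26), Msh6, of DNA mismatch repair (2155 and 86), Unc13b and Ube2o. Listed at P7 alone with most reads were, beside Igf2, Afp and Grb10, Rbm27 and Selp in the 3′UTR (490 and 436 reads) and Fermt3 in the CDS (1112 reads).

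The widest ratios towards adult liver are given by the same rule. In the 3′UTR Apoc3, the apolipoprotein that slows triglyceride clearance, had 9 reads at P7 and 364 in adult liver (log2 4.74, counting interval 3.80 to 5.89). It was followed by Ces1f, a carboxylesterase (16 and 520, log2 4.43), Ergic3, of transport between endoplasmic reticulum and Golgi (9 and 267), and the cytochrome P450 gene Cyp2c40 (26 and 664). Hepcidin, the iron hormone, followed with Hamp (16 and 386) and Hamp2 (16 and 390), near-identical copies that share reads. Cyp2a5, Proc, which encodes protein C, Rabac1 and Cyp2c29 completed the 10, with log2 ratios from 3.98 to 3.68. In the CDS the major urinary protein genes Mup11 and Mup18, which cannot be told apart by their reads, had 5 reads at P7 and 8071 in adult liver (log2 10.06, counting interval 8.84 to 11.69). Cyp2a4, a steroid hydroxylase, had 6 and 1037 (log2 6.84), and Hamp and Hamp2 had 11 and 1699 (log2 6.68). Scd1, which desaturates fatty acids, had 96 and 8566 reads (log2 5.89) over 9 and 113 distinct CDS sites. Errfi1, a feedback inhibitor of the EGF receptor, had 158 and 10910 (log2 5.52). Ahcy, which hydrolyses S-adenosylhomocysteine, had 13 and 730, and Gm4737, a gene whose reads can be shared with it, 16 and 1073. The genes with most reads listed in adult liver alone were Scd1 (465 reads over 169 sites), Mup3 (413), Thrsp, of lipogenesis (350), Cyp3a11 (297) and Cyp27a1 (147) in the 3′UTR, and in the CDS Mup3 (2416) and the near-identical Mup13, Mup15, Mup16 and Mup19 (865 each).

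Genes of bile acid synthesis and transport stood higher in adult liver in both regions. Of 22 genes, 19 were kept in the CDS, of which 11 were higher in adult liver, 1 was listed there only, 6 were under 2-fold and 1 was higher at P7, beside 17.3% of all CDS genes higher in adult liver. The median log2 ratio was 1.65, or 2.10 above that of all CDS genes. Of 7 genes kept in the 3′UTR, 4 were higher in adult liver, 1 was listed there only and 2 were under 2-fold, beside 9.17% of all 3′UTR genes higher in adult liver, with a median of 1.41, or 2.49 above all genes. Baat, which joins bile acids to taurine or glycine, had 15 CDS reads at P7 and 931 in adult liver (log2 5.36). Cyp8b1, which makes cholic acid, had 687 and 2818 in the CDS (log2 1.44) and 248 and 1049 in the 3′UTR (log2 1.49). Cyp7a1, the rate-limiting enzyme, stayed below the filter with 15 and 65 CDS reads. Hsd17b4, a peroxisomal side-chain enzyme, had 156 and 3823 CDS reads (log2 4.02), but −0.46 when only sites of at least 7 matched bases of abundant miRNAs counted. Hsd3b7, which reshapes the sterol ring, had 103 and 1485 3′UTR reads (log2 3.26), and Slc10a1, the bile acid importer, 18 and 194 (log2 2.84). The exception was Abcc2, a canalicular exporter, with 764 CDS reads at P7 and 310 in adult liver (log2 −1.89).

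Genes of drug metabolism, a list of 20 cytochrome P450 genes, their reductase Por and the receptors Nr1i2 and Nr1i3, also stood higher in adult liver. Of these 23, 21 were kept in the CDS, Por included and the receptors left out by the filter, with 16 higher in adult liver, 5 under 2-fold and none higher at P7, beside 17.3% and 34.5% of all CDS genes. The median log2 ratio was 1.88, 2.34 above all genes. Of 12 kept in the 3′UTR, 5 were higher in adult liver, 1 was listed there only, 4 were under 2-fold and 2 were higher at P7, beside 9.17% of all 3′UTR genes higher in adult liver and 48.4% at P7. Cyp2a5 had 42 and 1516 CDS reads (log2 4.58), Cyp3a11, the main drug-metabolising P450 of its subfamily in mouse liver, 155 and 2311 (log2 3.31), and Cyp2e1, which oxidises ethanol, 382 and 3671 (log2 2.67). Cyp2e1 went the other way in its 3′UTR, with 279 and 132 reads (log2 −1.67). Cyp2c37 and Cyp2c54 had identical CDS heights, 124 and 690, and share reads. Cyp2b9 had the highest mean CDS level of the list, 1716 and 3392 reads, at a log2 ratio of 0.39.

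Enzymes of the urea cycle and amino acid breakdown were higher in adult liver in the CDS for 14 of 28 kept genes, under 2-fold for 13 and higher at P7 for 1, beside 17.3% and 34.5% of all CDS genes higher in adult liver and at P7. The median log2 ratio was 1.04, 1.49 above all genes. Tdo2, which opens the ring of tryptophan, was the highest, with 771 reads at P7 and 16816 in adult liver (log2 3.85). Ahcy was given above, and Slc25a15, the mitochondrial ornithine carrier, had 34 and 482 (log2 3.23). Glud1, glutamate dehydrogenase, was the one gene higher at P7, with 189 and 120 CDS reads (log2 −1.25). Among 13 kept 3′UTRs, beside 9.17% of all, 4 were higher in adult liver, 8 under 2-fold and Glud1 again higher at P7 (log2 −1.99, but 0.35 with sites of at least 7 matched bases). Hal, which breaks down histidine, had 33 and 387 reads in both regions (log2 2.96), equal heights that arise where a cluster counts in each.

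Lipid genes are given in 3 lists, whose CDS counts stand beside 17.3% of all CDS genes higher in adult liver and 34.5% higher at P7, and whose 3′UTR counts beside 9.17% and 48.4%. For fatty acid and triglyceride synthesis 6 of 18 genes kept in the CDS were higher in adult liver, 1 was listed there only, 10 were under 2-fold and 1 was higher at P7, with a median of 0.50 (0.96 above all genes). Of the 14 kept in the 3′UTR 3 were higher in adult liver, 2 were listed there only, 5 were under 2-fold and 4 were higher at P7, with a median of −0.41 (0.66 above all genes). In the CDS, beside Scd1, Acacb, acetyl-CoA carboxylase 2, had 16 and 171 reads (log2 2.82) and Fasn, fatty acid synthase, 41 and 320 (log2 2.37). For fatty acid oxidation and ketogenesis 5 of 27 CDS genes were higher in adult liver, 1 was listed there only, 13 were under 2-fold and 8 were higher at P7, shares near those of all CDS genes, with a median of 0.09 (0.55 above all genes). Cpt1a, which carries fatty acids into mitochondria at the controlled step, had 12135 and 5949 CDS reads (log2 −1.62). Acat1, acetyl-CoA acetyltransferase, had 316 and 103 (log2 −2.21). Acaa1b, a peroxisomal thiolase, went towards adult liver with 344 and 5876 (log2 3.50). Of 13 oxidation genes kept in the 3′UTR, 8 were higher at P7 and none in adult liver, at a median of −1.09 beside −1.08 for all genes; Bdh1, of ketone body formation, had 650 and 97 reads (log2 −3.34). Cyp4a14, a fatty acid hydroxylase, had 460 and 333 3′UTR reads (log2 −1.06), but 2.30 with sites of at least 7 matched bases. For cholesterol synthesis and uptake, 8 of 21 CDS genes were higher in adult liver, 10 under 2-fold and 3 higher at P7. Fdps, farnesyl diphosphate synthase, had 12 and 128 reads (log2 2.82), and Lrp1, an endocytic lipoprotein receptor, 141 and 1478 (log2 2.80), but −1.02 with sites of at least 7 matched bases. Lss, lanosterol synthase, was among the genes higher at P7, with 124 and 56 (log2 −1.74). In the 3′UTR 2 of 15 were higher in adult liver, 10 under 2-fold and 3 higher at P7, among them Scarb1, the HDL receptor, with 1304 and 565 reads (log2 −1.80). The paper describes a miR-122 site of Scarb1 whose peak rose over development. The value here is the highest 3′UTR cluster of the gene, which need not be that site.

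Plasma protein mRNAs, abundant products of hepatocytes, were all 30 kept in the CDS, 14 higher in adult liver, 11 under 2-fold and 5 higher at P7, beside 17.3% and 34.5% of all CDS genes higher in adult liver and at P7. Their median was 0.70, 1.15 above all genes. Of the 25 kept in the 3′UTR 6 were higher in adult liver, 8 under 2-fold and 11 higher at P7, beside 9.17% and 48.4% of all 3′UTR genes. The median there was −0.79, 0.29 above all genes, and the number higher at P7 was near the share of all 3′UTR genes. Alb, albumin, had 19132 CDS reads at P7 and 50078 in adult liver (log2 0.80), and 1169 and 882 in the 3′UTR. Serpina3k, a serine protease inhibitor, had 58 and 1454 CDS reads (log2 4.05). Apob, the structural protein of very low density lipoprotein, was the CDS gene furthest towards P7, with 8723 and 2426 (log2 −2.44). Apoe, an apolipoprotein that binds lipoprotein receptors, had 5112 reads at P7 in both regions, and in adult liver 15895 in the CDS (log2 1.04) and 351 in the 3′UTR (log2 −4.46). Trf, transferrin, had 12474 at P7 in both regions, and in adult liver 8274 in the CDS (log2 −1.19) and 3651 in the 3′UTR (log2 −2.37). Such equal P7 heights arise where a cluster counts in each region. The ratios of the 2 regions of Apoe and Trf then share a P7 height and are not separate regional changes. The CDS value of Trf turned to 1.01 with sites of at least 7 matched bases.

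Glucose and glycogen genes lay near all genes. In the CDS 8 of 20 were higher at P7, 2 in adult liver and 10 under 2-fold, beside 34.5% and 17.3% of all CDS genes higher at P7 and in adult liver, and in the 3′UTR 4 of 8 were higher at P7 and none in adult liver, beside 48.4% and 9.17%. Their medians, −0.52 and −0.96, lay −0.07 and 0.12 from those of all genes. Gys2, liver glycogen synthase, had 268 and 54 CDS reads (log2 −2.90). Among growth hormone and insulin signalling genes, 5 of 13 were higher at P7 in the CDS, 3 in adult liver and 5 under 2-fold, and in the 3′UTR 5 of 11 were higher at P7, 1 was listed at P7 only, 1 was higher in adult liver and 4 were under 2-fold, again near the shares of all genes (34.5% and 48.4% higher at P7, 17.3% and 9.17% in adult liver). Igfals, which keeps Igf1 in the circulation, was higher in adult liver with 67 and 593 3′UTR reads (log2 2.55). Igf1 had 83 and 712 CDS reads (log2 2.51), while its 3′UTR had 529 and 258 (log2 −1.63, but 0.97 with sites of at least 7 matched bases). Of the binding proteins of IGFs in the list, Igfbp1 had 503 and 77 CDS reads (log2 −3.30) and Igfbp2 280 and 14 3′UTR reads (log2 −4.91). Igfbp4 was under 2-fold in the CDS (266 and 751, log2 0.90) and in the 5′UTR (257 and 519, log2 0.42), and higher at P7 in the 3′UTR (339 and 137, log2 −1.90). Hepatocyte transcription factors were mostly under 2-fold in the CDS (7 of 9, with 1 each way, beside 1685 of all 3766 genes), and their median of 0.50 lay 0.95 above all genes. In their 3′UTRs 4 of 10 were higher at P7, beside 48.4% of all genes, and 6 under 2-fold, with Rxra, the partner of the nuclear receptors, at 3286 and 1150 reads (log2 −2.11). Of the genes of the miRNA pathway itself, 4 of 7 were higher at P7 in the CDS and 4 of 5 in the 3′UTR, beside 34.5% and 48.4% of all genes, and none in adult liver. Their medians lay 0.79 and 0.23 below those of all genes. Drosha, which crops primary miRNAs, had 278 and 106 CDS reads (log2 −1.98), and Ago2 174 and 28 3′UTR reads (log2 −3.23). Clock genes passed the filter for 3 of 19 in the 3′UTR and 4 in the CDS, with 2 higher at P7 in each region, too few to set beside those shares, and none in adult liver.

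**Figure D2:**
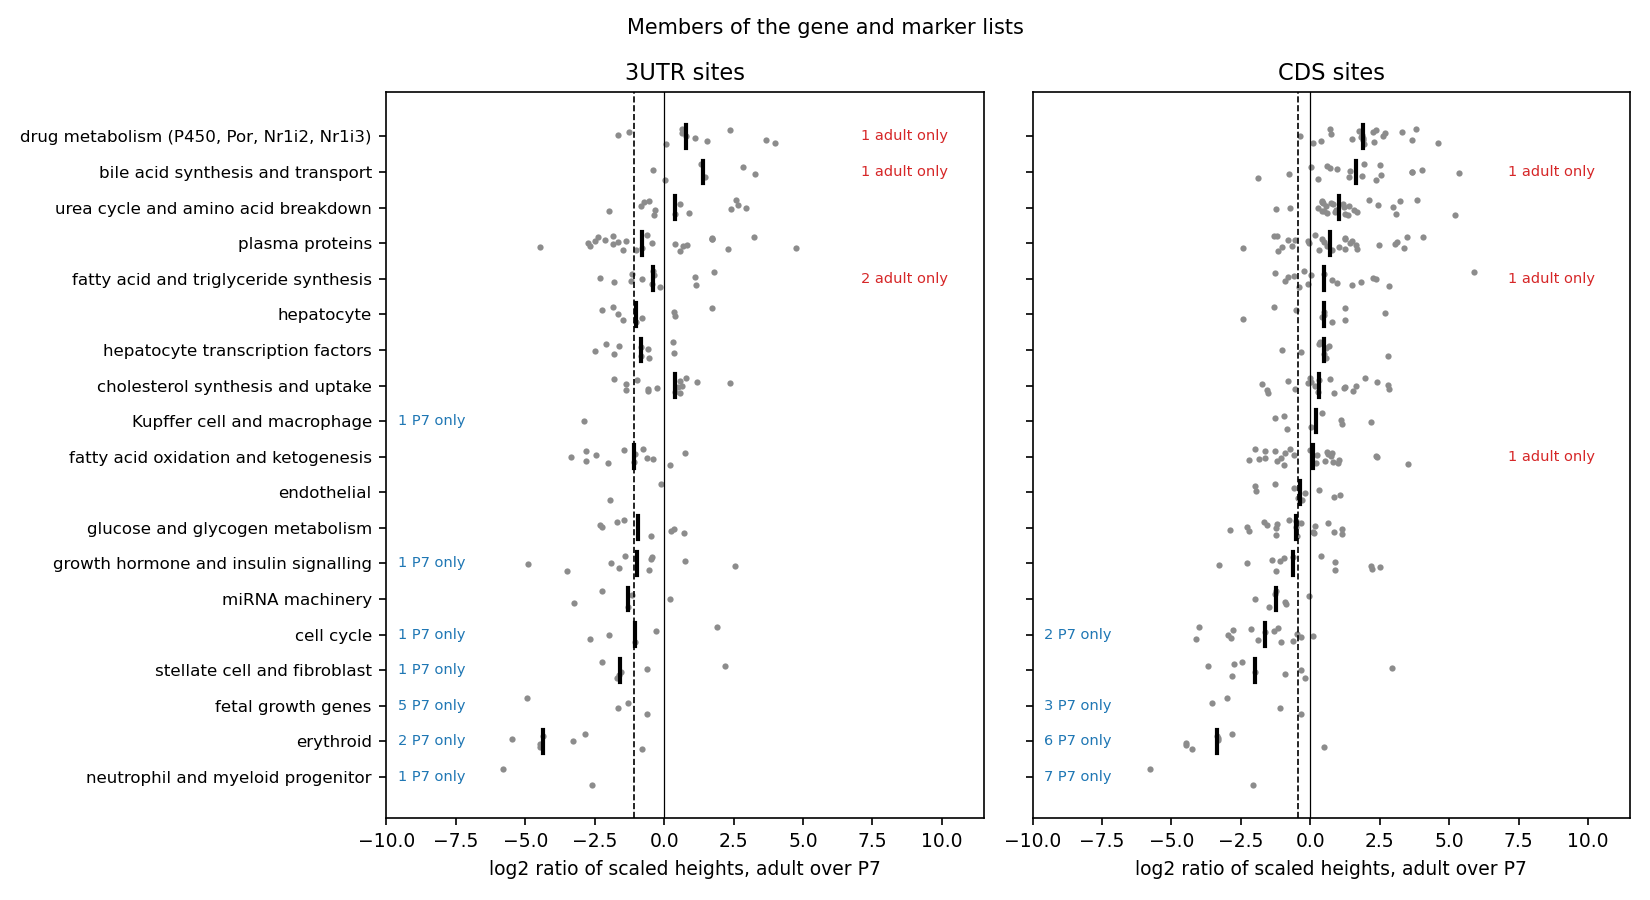
Log2 ratio of adult over P7 for the highest Ago cluster of each member of the gene lists and cell type marker lists, for 3′UTR and CDS. Each point is a gene kept and listed at both stages, the short bar is the median of a list with at least 5 such genes and the dashed line the median of all genes kept (−1.08 and −0.45); lists without a bar, such as the neutrophil list, had fewer. Bile acid and drug metabolism lists lie to the right of the dashed lines and the erythroid list to the left.

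Within a gene, the ratio of adult over P7 was more often lower in the 3′UTR than in the CDS, a comparison in which the scaling cancels. Over 3242 genes with separate 3′UTR and CDS clusters at both stages, the log2 ratio of adult over P7 was lower in the 3′UTR for 1902 (58.7%), and the median difference was −0.38, or 1.30-fold. With a mean of at least 2 RPM in both regions, a filter that does rest on the scaling, 530 of 817 genes (64.9%) were lower in the 3′UTR, and the median was −0.77, or 1.70-fold. For a single gene, differences of this size are smaller than the usual spread between its clusters. With summed clusters in place of the highest the median was −0.58, and with sites of at least 7 matched bases −0.54 over 1020 genes.

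The Ago-bound miRNAs themselves shifted from a broad set at P7 to a narrower one in adult liver. At P7 743 miRNAs were listed and in adult liver 585, and the 10 most abundant held 58.6% and 71.4% of the miRNA reads. Of 177 miRNAs with a mean share of at least 0.01%, 87 (49.2%) had at least a 2-fold larger share at P7 and 19 (10.7%) in adult liver, 69 were under 2-fold, and 2 (1.13%) were listed at P7 only, which makes 89 (50.3%) towards P7. The median log2 ratio of shares was −0.97, and counted against it 56 lay towards P7 and 49 towards adult liver, a balance that the centring itself brings about. Those listed at P7 only were miR-483-3p and miR-483-5p, which lie within the Igf2 gene. let-7c-5p went from 10.9% to 15.6%, miR-122-5p, the main miRNA of hepatocytes, from 12.3% to 11.2%, and miR-194-5p from 9.29% to 10.01%, all under 2-fold. miR-16-5p went from 3.51% to 14.04%. miR-126a-3p of endothelial cells went from 1.28% to 5.05% (log2 1.98), although its partner strand miR-126a-5p went from 0.585% to 0.262% (log2 −1.16). Those 2 strands come from the same hairpin.

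The miRNAs of the imprinted Dlk1-Dio3 region were nearly absent from adult liver. Its 12 kept members were all higher at P7, beside 49.2% of all kept miRNAs, and the 28 members together went from 4.91% to 0.0513%, 95.7-fold. miR-136-5p, the most abundant of them, had 289354 reads at P7 and 7474 in adult liver (log2 −6.20), and miR-127-3p 130860 and 2513 (log2 −6.63). In adult liver miR-136-5p held 0.0326% of the miRNA reads and miR-127-3p 0.011%, which is most of the 0.0513%. The other kept members therefore passed the filter through their P7 share, and their direction followed from the filter. Among members with a mean share of at least 0.05%, miR-434-3p had the widest ratio, with 12912 and 60 (log2 −8.68). The X-linked cluster of miR-322, miR-503 and miR-351 went from 1.27% to 0.126%, and the epithelial miR-200 family, all 5 members higher at P7, from 1.33% to 0.218%. All 5 members of the miR-30 family were higher at P7 too, again beside 49.2% of all, summing to 8.29% and 2.20% (3.76-fold), with miR-30a-5p at 4.64% and 1.07%. Erythroid and myeloid miRNAs summed to 13.0% and 6.94%. Of these miR-142a-3p, of blood cells, went from 8.88% to 4.34% and miR-223-3p, of neutrophils, from 0.898% to 0.101%, whereas miR-451a, of red cells, went the other way, from 0.299% to 0.722% (log2 1.27), against the direction of the erythroid mRNAs. Of the 7 members miR-451a alone was higher in adult liver, 4 were higher at P7 and 2 under 2-fold, beside 10.7% and 49.2% of all kept miRNAs higher in adult liver and at P7. The seed families of miR-486a-5p and miR-144-3p, also of this group, went from 0.968% to 0.293% and from 1.97% to 1.54%.

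Of the groups examined, the miR-29 family had the largest ratio towards adult liver. Its 3 members went together from 0.272% to 2.63%, 9.65-fold, and singly from 26208 to 368472 reads for miR-29a-3p (log2 2.89), from 3191 to 114352 for miR-29b-3p (log2 4.24) and from 3378 to 119086 for miR-29c-3p (log2 4.21). The miR-15/16 family followed, from 3.84% to 14.9% (3.89-fold), then both strands of miR-126a together, from 1.86% to 5.31% (2.85-fold), and let-7, from 15.3% to 22.4% (1.47-fold). Of 9 let-7 members 8 were under 2-fold and 1 was higher at P7, beside 49.2% of all miRNAs higher at P7 and 10.7% in adult liver. miR-145a-5p, of smooth muscle, had 882 and 36375 reads (log2 4.44) and miR-140-5p 3725 and 56828 (log2 3.00). The group of mesenchymal miRNAs, to which miR-145a-5p belongs, did not move with it. Of the 6 kept members miR-145a-5p alone was higher in adult liver, 2 were higher at P7 and 3 under 2-fold. The hepatocyte group summed to 23.7% and 24.1%, and of its 9 kept members 2 were higher in adult liver, beside those 10.7%, and 7 under 2-fold.

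**Figure D3:**
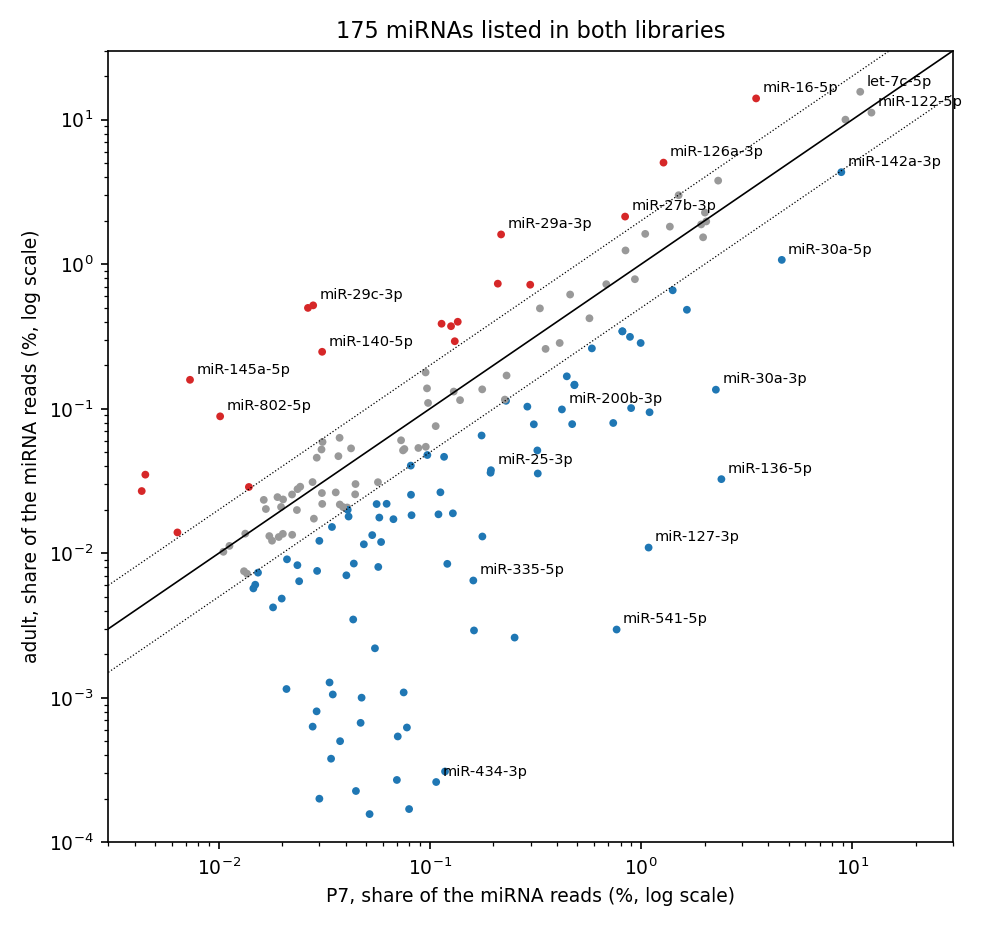
Share of the miRNA reads, in percent on logarithmic axes, of each miRNA with a mean share of at least 0.01% listed at both stages, at P7 (horizontal) and in adult liver (vertical). The solid line marks equal shares and the dotted lines 2-fold differences; points beyond 2-fold are blue where higher at P7 and red where higher in adult liver, and the miR-29, miR-16 and miR-126a-3p points lie above while miR-136-5p, miR-127-3p and other Dlk1-Dio3 miRNAs lie far below.

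Sites for the miR-29 seed made up a larger part of Ago clusters in adult liver as well. In the 3′UTR 385 of 29584 clusters (1.30%) held such a site at P7 and 399 of 15895 (2.51%) in adult liver, a log2 odds ratio of 0.97 (0.76 to 1.17). In the CDS the shares were 1.35% and 2.64% (log2 0.98, 0.84 to 1.12), the highest of 397 seed families. In the 3′UTR it ranked behind the families of miR-28a-3p and miR-3102-3p, whose miRNAs held at most 0.0161% of the miRNA reads, and with sites of at least 7 matched bases it was the highest of 199 (0.629% and 1.52%, log2 1.29). Across 329 families in the 3′UTR the interval lay above 0 for 88 (26.7%) and below for 24 (7.29%), and the median was 0.14. Across the CDS families it lay above for 190 (47.9%) and below for 18 (4.53%), and the median was 0.24.

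Other families did not all follow their miRNA. The miR-30 seed held a larger part of 3′UTR clusters in adult liver (1.88% and 2.33%, log2 0.32, 0.13 to 0.51) while its miRNA share was smaller, and the miR-16 seed did not differ beyond its interval (3.75% and 3.56%, log2 −0.08, −0.23 to 0.07) while its miRNA share was larger. The miR-136 seed was likewise at 0.973% and 0.956% (log2 −0.03, −0.31 to 0.26). The median of all 3′UTR families, 0.14, lies within the miR-30 and miR-136 intervals and above that of miR-16, so the miR-30 rise does not exceed that of families in general. The let-7 (log2 0.45, 0.26 to 0.65), miR-122 (log2 0.51, 0.35 to 0.66), miR-192 (log2 0.52, 0.20 to 0.83) and miR-194 families (log2 0.39, 0.15 to 0.62) had larger parts in adult liver, and the miR-142a family a smaller part (log2 −0.33, −0.65 to −0.01). Over the 17 families with a mean miRNA share of at least 1%, the change of sites and the change of miRNA were related in the 3′UTR by r = 0.48 (rho = 0.39), with the same sign for 9 of them, and in the CDS, over 18 families, by r = 0.30 (rho = 0.28). At a mean share of at least 0.1% r was 0.26 over 36 families in the 3′UTR and 0.06 over 44 in the CDS, and over all 329 in the 3′UTR it was −0.03 (rho = −0.01). These are descriptions across families that share clusters and 2 libraries.

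**Figure D4:**
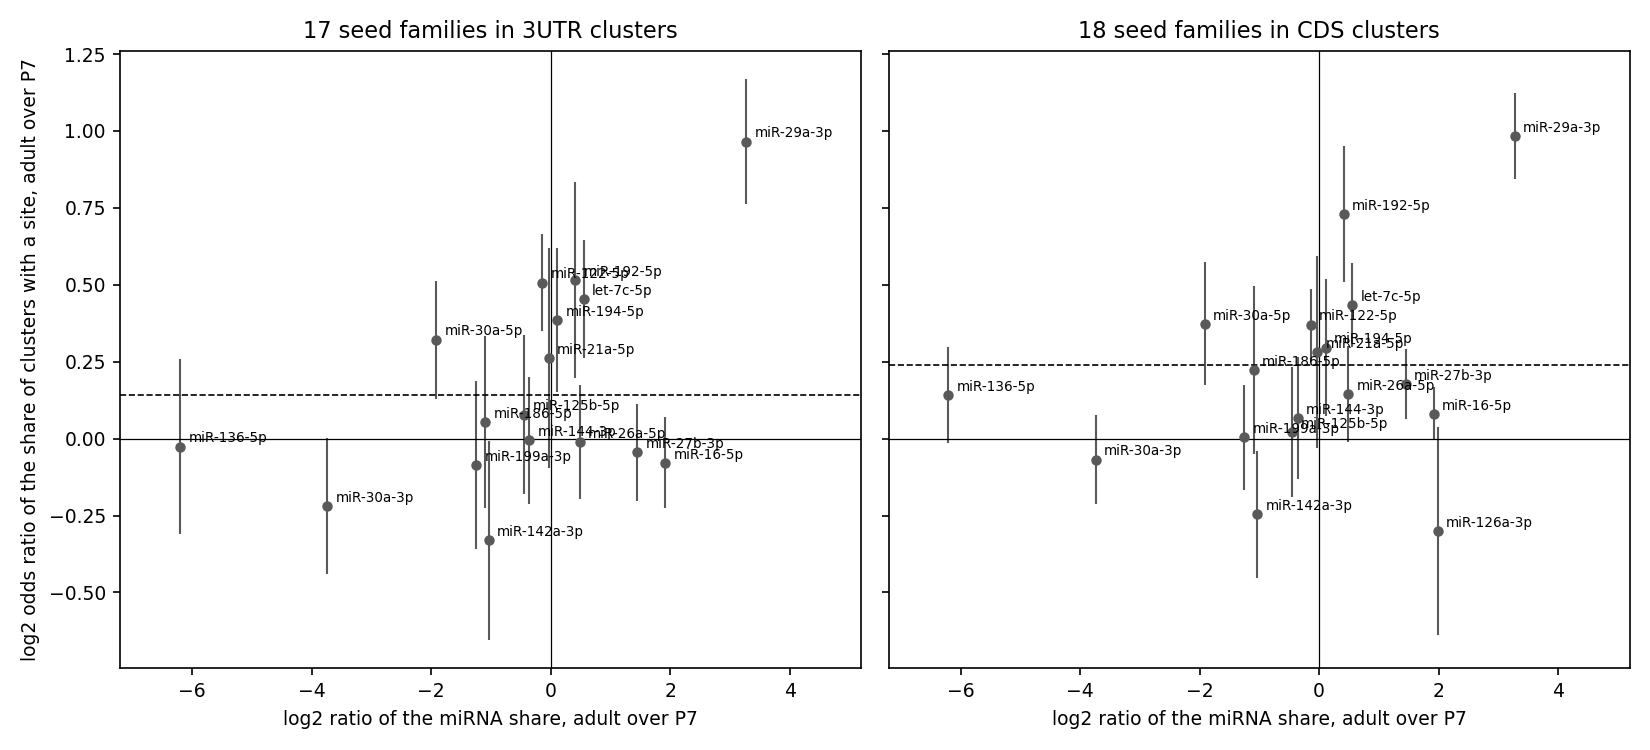
Log2 odds ratio of adult over P7 for the share of clusters holding a site of each seed family (vertical) against the log2 ratio of the summed miRNA share of the family (horizontal), in 3′UTR (left, 17 families) and CDS (right, 18 families), for families with a mean miRNA share of at least 1%, each named by its leading miRNA. Vertical lines are 95% counting intervals and dashed lines the median of all families (0.14 and 0.24); miR-29a-3p lies highest at the right, and miR-30a-5p and miR-136-5p lie to the left with log2 odds ratios between −0.03 and 0.37.

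The height of clusters at single sites varied in both directions for the same miRNA. At the miR-30a-5p sites printed above, Ccne2 had 2012 reads at P7 and 21 in adult liver and Slc35b2, a sugar nucleotide transporter of the Golgi, 1678 and 77. Another miR-30a-5p site, in Psen2, a presenilin, went the other way with 23 and 339. The let-7a-5p site of Pkn2, a protein kinase, had 2322 and 30. At miR-194-5p sites, Lamp2, a lysosomal membrane protein, had 593 and 7423, and Rabac1, of vesicle transport, 66 and 1870, while the share of miR-194-5p itself was under 2-fold different. miR-29a-3p sites, taken as the 10 with the highest mean height, a set chosen after values were seen, were at least 2-fold higher in adult liver for 5, higher at P7 for 2 and under 2-fold for 3. No share over all 3′UTR sites stands beside these counts, so they describe these 10 sites only. Slco1b2, a hepatocyte anion importer, had 24 and 433 reads, and Hsd3b7 17 and 248. Atg9a, of autophagosome formation, had 57 and 313, and Mcl1, which restrains cell death, 13 and 100. Abcg5, a sterol exporter, had 76 and 314. Sh3tc1 (572 and 126) and Erlin2 (170 and 94) went the other way, and Cyp2a12, Zfp36l1 and Gsk3b were under 2-fold. In adult liver the Slco1b2 site has the same height as a miR-136-5p site beside it, so a height cannot be assigned to 1 miRNA. For clusters found at both stages, those with a miR-29 site had a median log2 ratio 0.57 above that of all pairs in the 3′UTR (52 pairs, quartiles of the ratio −1.15 and 0.71). Other families had such 3′UTR shifts with a smaller or opposite change of their miRNA, 0.90 for miR-192-5p (21 pairs), 0.46 for miR-194-5p (73 pairs) and 0.43 for miR-136-5p (22 pairs). In the CDS the shift was 0.60 for miR-29 (172 pairs) and 0.40 for miR-194-5p (96 pairs). It was 0.09 for miR-192-5p (50 pairs) and −0.03 for miR-136-5p (98 pairs).

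**Figure D5:**
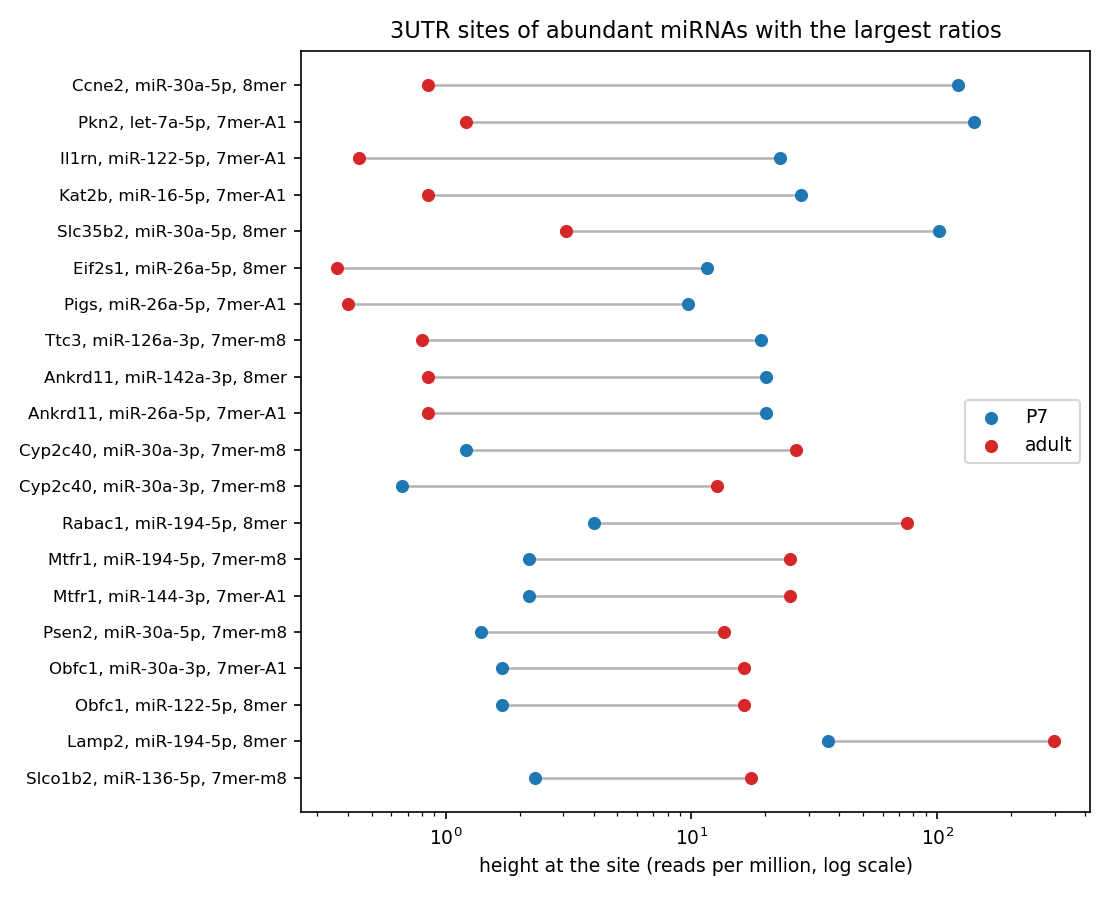
Height of the cluster at 3′UTR sites of the 20 most abundant miRNAs with the largest ratios in each direction, in RPM on a logarithmic axis. Each line is a site, named by gene, miRNA and type of seed match, and joins its P7 value (blue) to its adult value (red); the Ccne2 site lies at 122 at P7 and 0.844 in adult liver and the Lamp2 site at 35.9 and 298, and lines with equal values belong to sites of 1 cluster.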

How the data were processed

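Ago-bound RNA of P7 and adult mouse liver was read from 1 list of miRNA-target interactions per stage. Reads had been cleaned with the FASTX-Toolkit and aligned by Bowtie to mm10 and the precursors of miRBase v19. The authors joined overlapping reads to clusters, which they annotated (UCSC refGene, Ensembl) and searched for miRNA seeds. Versions are not given in the sources used here. The submitters' processing notes name mm9 beside mm10, and all 30 fragments looked up lay at their listed positions in GRCm38. The deposited read values are a signal, the highest number of reads in the peak, not scaled to library size, with a minimum of 5. The deposited conservation fraction was not used, and the deposited free energy score of the duplex was kept beside named sites only. The number carried in each interaction name, which the lists do not explain, was taken as the miRNA's reads. Of 156 miRNAs with a cluster at their own gene it was 1 times that cluster's height for 128, 2 times for 20 and 3 times for 4.

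Per gene and region the highest cluster was scaled to the summed cluster reads and called at a 2-fold difference where the mean was at least 2 RPM (reads per 1000000 summed reads). miRNAs were called on shares with a mean of at least 0.01%, and seed families needed 50 clusters at both stages. Intervals are Wilson and Newcombe 95% intervals for shares and differences, and 95% intervals of odds ratios. With 1 library per stage no p-value was computed. Lists lack clusters without a seed site, so their sums fall short of library depth, and library totals of the study's supplement served as an alternative.

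The members, lists and the rule for named genes were chosen with earlier results of these data known. The rule took, for 3′UTR and CDS, the 10 widest ratios each way with a mean of at least 5 RPM, the 5 with most reads listed at 1 stage only, and up to 4 members of each list by level and ratio; miRNAs with a share of at least 1% or the 10 widest ratios each way; and the 10 widest 3′UTR sites each way. Some members, and the miR-29 sites, were named after their values were seen, and a few genes that the rule names are not reported here. Of 436 genes in 24 lists, 411 matched as written, 2 by RefSeq synonyms and 23 were not listed. Of 38 miRNAs looked up in RefSeq, 34 had an entry, and miR-122-5p, miR-23b-3p, miR-140-5p and miR-145a-5p are named only. The scripts were tested on simulated data and run with Python 3.11.15, numpy 2.4.6, pandas 2.3.3, scipy 1.17.1 and matplotlib 3.10.9.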

Additional observations from a re-analysis of the deposited data

How the results depend on the processing

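The counts of genes depend on scaling, filter and threshold, in each case given as higher in or only in P7, then adult. For the 3′UTR (1093 and 193) they were 739 and 377 when scaled by the median ratio and 730 and 388 by mRNA clusters only. Without the 100 clusters with most reads they were 683 and 428. They were 5044 and 1321 without a filter, 162 and 27 with a mean of at least 10 RPM, and 626 and 71 at 4-fold. With summed clusters they were 2218 and 269, and with sites of at least 7 matched bases of the 100 most abundant miRNAs 695 and 144. For the CDS (1403 and 678) they were 1062 and 935 when scaled by the median ratio and 790 and 1217 by mRNA clusters only. Without the 100 clusters with most reads they were 730 and 1301. They were 5050 and 2148 without a filter, 223 and 192 with a mean of at least 10 RPM, and 628 and 274 at 4-fold. With summed clusters they were 2607 and 872, and with 7 matched bases 814 and 536. The fewer or more genes tested under another filter change these counts by construction, and the cause of the others was not tested.

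The 3′UTR share of clusters differed by −5.37 points among clusters of at least 20 reads, −5.56 at 1 RPM or more, −16.3 by summed reads and −8.45 by summed reads without globin clusters. The CDS difference was 9.03 points at 1 RPM or more, and by summed reads −0.382, the opposite direction, but 5.94 by summed reads without globin clusters. miRNAs higher at P7 and in adult liver (89, those listed at P7 only included, and 19) numbered 188 and 40 with a mean share of at least 0.001%, and 56 and 49 when scaled by the median ratio. The miR-29 log2 odds ratio was 1.29 with 7 matched bases.

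Of 156 values of named genes, none that was at least 2-fold apart changed direction under the 4 other scalings or without sites in miRNA genes. Between 16 and 29 of the 156 crossed 2-fold or moved by at least 1 on the log2 scale under 3 of those scalings, none with library totals, 41 with summed clusters and 30 with 7 matched bases. With 7 matched bases 45 had no value and 7 changed direction: Hsd17b4 (−0.46) and Lrp1 (−1.02) and Trf (1.01) in the CDS, and Rora (0.051), Cyp4a14 (2.30), Igf1 (0.97) and Glud1 (0.35) in the 3′UTR. With summed clusters Nfia in the CDS did (0.0489). Of 96 list medians recomputed, 6 moved, and those that changed sign lay near the median of all genes, the furthest at −0.50 (stellate markers, 3′UTR, 0.07 with summed clusters). Leaving out sites in miRNA genes, globin clusters, summed clusters for 5′UTRs and for the same-gene comparison, clusters at the miRNAs' own genes, and the list sums without globins or Igf2 were alternatives chosen after seeing the data. No paired analysis was possible because each stage has 1 sample.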
